A study of Mus musculus with 8 samples.

Results

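The interferon regulatory factors (IRFs) are a family of transcription factors, and 8 of their genes, Irf1, Irf2, Irf3, Irf4, Irf5, Irf7, Irf8 and Irf9, were followed in sorted mouse Paneth cells. They were taken by symbol and are 8 of the 55414 genes in the count table, chosen with earlier results of these data known. The mice were wild type (WT), of the C57BL/6J strain by the study's methods, and received tumor necrosis factor (TNF) or phosphate-buffered saline (PBS) by injection. After 3 h the small intestine was taken and its Paneth cells were purified by sorting. There were 4 PBS and 4 TNF libraries, named as biological replicates, and no allele other than wild type was present in either group. Paneth cells sit at the bottom of small intestinal crypts and secrete antimicrobial peptides, and the question addressed by the comparison was which genes respond to TNF in them.

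All IRFs share a DNA-binding domain that reads repeats of the letters GAAA in promoters and enhancers. IRF1 activates genes after interferon-γ and TNF, and IRF2 binds the same sites, where it often opposes IRF1. IRF3 and IRF7 wait in the cytoplasm until kinases downstream of nucleic acid sensors phosphorylate them, after which they switch on the type I interferon genes. IRF9 carries STAT2 to DNA in the complex that answers type I and type III interferons. IRF4, IRF5 and IRF8 are best known from lymphocytes, macrophages and dendritic cells.

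The promoters of Irf1, Irf2 and Irf8 are printed because these members rose after TNF and their promoters hold letters recognized by factors of the interferon and TNF pathways. Each runs from 250 bases before to 50 bases after the annotated start of the canonical transcript (GRCm39, sequence given 5′ to 3′ on the gene's strand), and capitals mark the matches to the motifs described afterwards.
Irf1: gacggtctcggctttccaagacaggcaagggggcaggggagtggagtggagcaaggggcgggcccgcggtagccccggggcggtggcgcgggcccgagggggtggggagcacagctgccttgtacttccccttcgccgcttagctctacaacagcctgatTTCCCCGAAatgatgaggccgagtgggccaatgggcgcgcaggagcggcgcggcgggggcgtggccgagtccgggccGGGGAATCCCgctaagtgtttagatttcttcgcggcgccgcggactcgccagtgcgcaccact
Irf2: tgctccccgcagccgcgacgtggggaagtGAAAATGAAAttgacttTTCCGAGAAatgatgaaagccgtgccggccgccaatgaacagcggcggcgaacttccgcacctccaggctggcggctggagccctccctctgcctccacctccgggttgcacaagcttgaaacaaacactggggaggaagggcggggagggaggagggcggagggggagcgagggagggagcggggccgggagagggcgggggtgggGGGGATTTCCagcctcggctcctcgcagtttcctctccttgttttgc
Irf8: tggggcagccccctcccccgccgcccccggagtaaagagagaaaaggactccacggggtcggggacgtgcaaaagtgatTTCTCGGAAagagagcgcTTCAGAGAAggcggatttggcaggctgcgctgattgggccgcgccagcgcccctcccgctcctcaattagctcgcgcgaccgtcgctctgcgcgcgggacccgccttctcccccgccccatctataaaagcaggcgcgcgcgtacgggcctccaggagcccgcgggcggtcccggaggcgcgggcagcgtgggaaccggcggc
The Irf1 window is chr11:53660591-53660890, the Irf2 window is chr8:47192510-47192809 and the Irf8 window is chr8:121462847-121463146, all on the plus strand.

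The motifs searched on both strands were an IRF-type repeat (GAAANNGAAA), a STAT-type palindrome (TTCNNNGAA, the core of a γ-interferon-activated site) and the kappa B motif bound by NF-κB. The Irf1 promoter held a STAT-type match at −90 to −82, TTCCCCGAA, and a kappa B match at −13 to −4, GGGGAATCCC, counted from the start site. The Irf2 promoter held all the kinds of motif searched, with the IRF-type match GAAAATGAAA at −221 to −212, the STAT-type match TTCCGAGAA at −204 to −196 and the kappa B match GGGGATTTCC at 4 to 13. The Irf8 promoter held 2 STAT-type matches, TTCTCGGAA at −171 to −163 and TTCAGAGAA at −153 to −145. In Irf3 a kappa B match lay at −236 to −227, and the windows of Irf4, Irf5, Irf7 and Irf9 held no match to these letters. Over 21627 promoters of protein-coding genes, 3.83% held the IRF-type, 8.85% the STAT-type and 8.95% the kappa B letters. The matches are a description of the sequence, and binding was not measured.

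The libraries held between 23824717 and 32576077 counts, with 16712 to 19135 genes detected in each. The sorted identity was visible in all libraries, since the summed level of 8 Paneth cell markers (among them Lyz1 and Defa24) was 450003 to 505741 CPM (counts scaled to a library total of 1000000) in the PBS and 465227 to 606852 CPM in the TNF libraries. TNF replicate 4 stood apart. Its 28 α-defensin (Defa) genes took 51.4% of its counts against 32% to 37.9% elsewhere, its TMM factor (edgeR's correction of library size for such dominant genes) was 0.448 against 0.995 to 1.36, and it lay at 63.9 on the second principal component where the others lay between −29.1 and 4.22. Values below are TMM-normalized CPM unless plain CPM, without that factor, is named. Calls of the members are given under both scalings, and also without this library where the scaling changes the call.

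Of the 7 members tested, 6 were higher after TNF and the other, Irf3, was not called. Of the 13368 genes tested by edgeR's quasi-likelihood test, 43.0% were called at an adjusted p (Benjamini-Hochberg over all genes) under 0.05, 23.3% were called higher, 19.6% were called lower, and the PBS and TNF ranges did not overlap for 42.1%. Against this background, 6 of 7 members were called higher and the same number had ranges that did not overlap. The median log2 fold change of the tested members was 1.25, beside 0.026 over all genes tested. Scaling by library size alone moved the median of all genes by −0.40, to −0.38, and that of the members to 0.90. Under that scaling 2 members, Irf1 and Irf8, were called, both higher, beside 23.8% of all genes tested in either direction, 5.66% higher and 18.1% lower. When TNF replicate 4 was left out as well, all 6 were, beside 44.6% of the 13726 genes tested in that fit in either direction and 16.4% higher. Among all genes called, 54.3% were higher in TNF with TMM factors and 23.8% with library size alone.

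**Figure D1:**
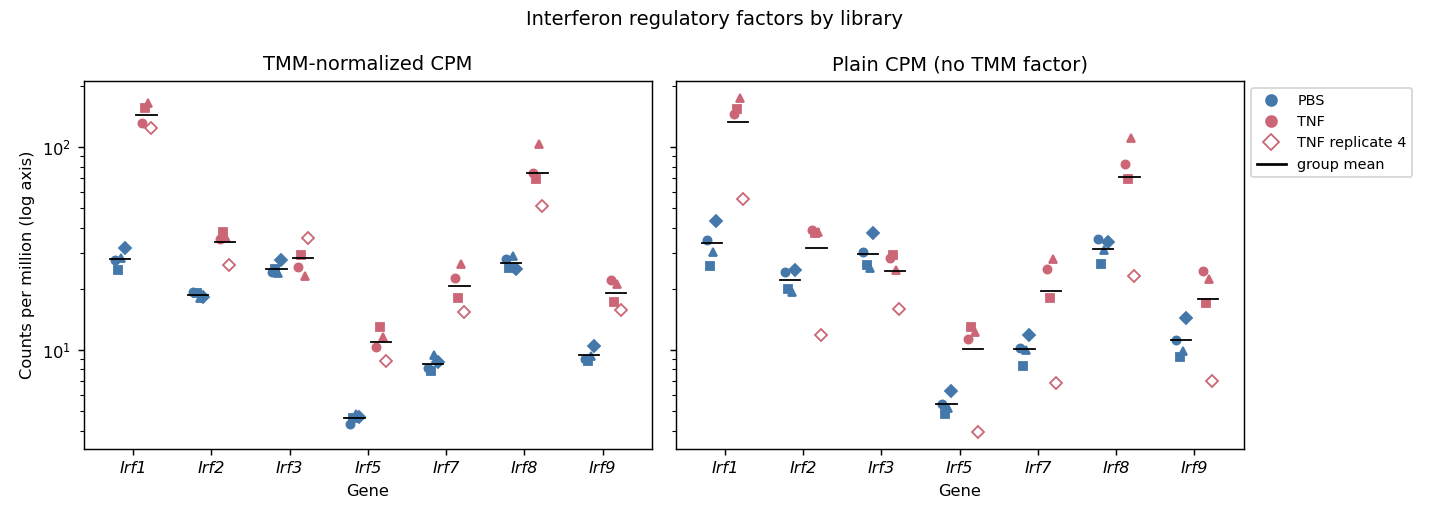
Level of each detected member in every library, in TMM-normalized CPM (left) and plain CPM (right), on log axes, with 1 point for each library and a line at the group mean. On the left the PBS and TNF points of all members but Irf3 are apart, and on the right TNF replicate 4 (open diamond) falls below the PBS points of every member but Irf1, where it lies at 55.4 CPM above the highest PBS library at 43.2 CPM.

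Irf1 had the largest fold change of the family, under each scaling and test tried. The gene (ENSMUSG00000018899, chr11:53660812-53669200) was at 27.6, 24.8, 28.5 and 31.9 CPM in the 4 PBS libraries and at 131, 155, 165 and 124 CPM in the 4 TNF libraries. Every TNF library lay far above every PBS library. In plain CPM the groups did not overlap either, but TNF replicate 4, at 55.4, was much nearer to the highest PBS library, at 43.2. The mean went from 28.2 ± 2.91 to 144 ± 19.3 CPM (SD, n = 4 each), a 5.09-fold rise with a log2 fold change of 2.35 ± 0.14 (SE) and an edgeR adjusted p of 6.68e-07. Of all genes tested, 318 (2.38%) had a larger positive fold change. Its log2 fold change was 1.98 with library size alone (edgeR adjusted p = 0.00115).

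On the opposite strand, the unconfirmed transcript Gm17334 shares 1467 exon bases with Irf1, or 31.4% of the merged Irf1 exons. Gm17334 was at 5.99 CPM in PBS and 29.9 CPM in TNF on average, a log2 fold change of 2.32 (edgeR adjusted p = 6.51e-07). The library kit keeps strand, but the strand setting of the counting was not given in the sources used here, so the reads of the pair may not be fully separated. The lncRNA Gm12216, which shares 619 exon bases with Irf1, had at most 29 counts in a library.

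Irf2, the factor that competes with IRF1, rose less. Its gene (ENSMUSG00000031627, chr8:47192222-47300501) was at 19.2, 19, 18 and 18.3 CPM in PBS and at 35.2, 38.1, 35.8 and 26.3 CPM in TNF. The PBS libraries were nearly equal, and TNF replicate 4 was the lowest of the TNF libraries though still above all of PBS. The log2 fold change was 0.86 ± 0.13 (edgeR adjusted p = 0.000308), from 18.6 ± 0.57 to 33.8 ± 5.17 CPM. Library size alone gave 0.52 (edgeR adjusted p = 0.294), and with TNF replicate 4 left out too it was 0.79 (edgeR adjusted p = 0.000831).

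The ratio of Irf1 to Irf2 counts inside one library does not depend on any scaling. It was 1.44, 1.3, 1.58 and 1.74 in the PBS libraries and 3.74, 4.07, 4.6 and 4.7 in the TNF libraries. Irf1 had gained on Irf2 in each of the 4 TNF libraries, TNF replicate 4 included. The mean log2 ratio went from 0.59 ± 0.18 to 2.09 ± 0.15 (SD), a difference of 1.50 (two-sided exact permutation p of 0.0286, the smallest that 70 assignments can give, and 0.0429 after adjustment over 6 ratios).

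Irf3 and Irf7, the pair that acts downstream of nucleic acid sensors, moved unequally. The Irf3 gene (ENSMUSG00000003184, chr7:44647033-44652272) was at 24.1, 24.9, 23.8 and 27.7 CPM in PBS and at 25.7, 29.4, 23.2 and 35.6 CPM in TNF. Its groups overlapped, and its log2 fold change of 0.18 ± 0.14 did not pass the test (edgeR adjusted p = 0.337). The sign turned with library size alone, to −0.28 (edgeR adjusted p = 0.5), so no direction is given for Irf3.

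Irf7 (ENSMUSG00000025498, chr7:140842619-140846398, minus strand) was at 8.13, 7.89, 9.42 and 8.72 CPM in PBS and at 22.7, 18.1, 26.5 and 15.3 CPM in TNF. All TNF libraries were above the PBS libraries, with replicate 4 again the lowest. The rise was 2.43-fold, a log2 fold change of 1.28 ± 0.17 (edgeR adjusted p = 0.000157). With library size alone it was 0.95 (edgeR adjusted p = 0.0747) and, without TNF replicate 4 as well, 1.23 (edgeR adjusted p = 0.000398).

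Within libraries, Irf7 had 0.338, 0.318, 0.396 and 0.315 counts for each Irf3 count in PBS and 0.884, 0.615, 1.14 and 0.431 in TNF. Every TNF ratio was above every PBS ratio, but the TNF libraries spread widely and replicate 4 came nearest to PBS. The log2 ratio differed by 1.08 (exact permutation p = 0.0286, two-sided, or 0.0429 after adjustment over the 6 ratios).

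**Figure D2:**
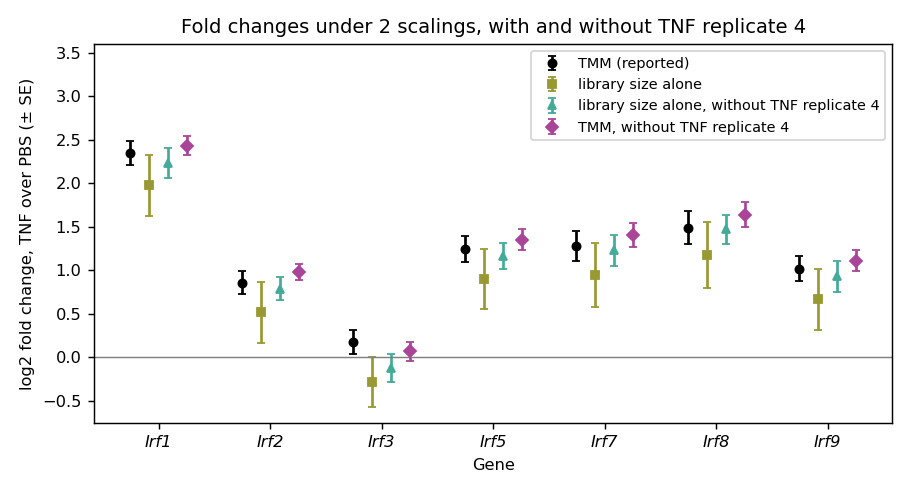
Log2 fold change of each tested member, TNF over PBS, with bars of 1 SE, under TMM scaling and library size alone, each with and without TNF replicate 4. Irf1 lies between 1.98 and 2.43 in all of them, while Irf3 crosses 0, from 0.18 to −0.28.

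Irf9 encodes the DNA-binding subunit of the complex with STAT2. The gene (ENSMUSG00000002325, chr14:55841028-55847812) was at 8.96, 8.82, 9.27 and 10.5 CPM in PBS and at 22, 17.2, 21 and 15.7 CPM in TNF. The groups did not overlap, and the fitted rise was 2.03-fold, a log2 fold change of 1.02 ± 0.14 (edgeR adjusted p = 0.000179). Library size alone gave 0.67 (edgeR adjusted p = 0.182), and without TNF replicate 4 as well it was 0.93 (edgeR adjusted p = 0.00245). Irf9 shares 282 exon bases with Rnf31 on the same strand, and Rnf31, a subunit of the linear ubiquitin ligase, was higher after TNF by 1.51 on the log2 scale (edgeR adjusted p = 6.65e-06).

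Stat2 rose too, from 13.7 ± 2.43 to 45.7 ± 5.13 CPM, a log2 fold change of 1.73 (edgeR adjusted p = 7.32e-06). In the fit with library size alone, Stat2 was at an edgeR adjusted p of 0.0133. The Irf9 to Stat2 count ratio was 0.639, 0.783, 0.735 and 0.621 in PBS and 0.418, 0.426, 0.469 and 0.351 in TNF, so Stat2 outpaced Irf9 in every TNF library. The difference in log2 ratio was −0.74 (exact permutation p = 0.0286, two-sided, or 0.0429 after adjustment over the 6 ratios).

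Irf1 outpaced Irf9, with 3.08, 2.81, 3.07 and 3.03 Irf1 counts for each Irf9 count in PBS and 5.96, 9, 7.83 and 7.84 in TNF. This log2 ratio differed by 1.34 (exact permutation p = 0.0286, adjusted 0.0429).

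**Figure D3:**
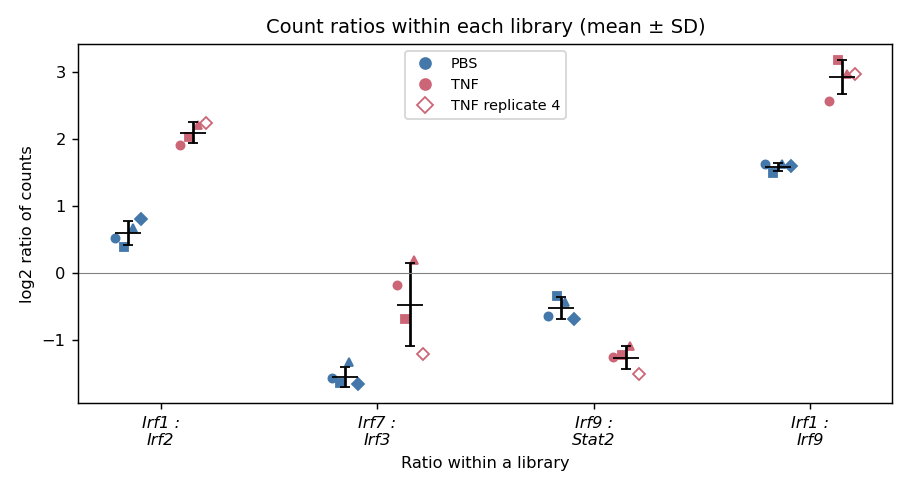
Log2 ratio of the counts of 2 genes within each library, with 1 point for each library and lines at the mean ± SD of 4 libraries. PBS and TNF libraries are apart for Irf1 to Irf2, Irf7 to Irf3, Irf9 to Stat2 and Irf1 to Irf9.

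The 3 members best known from leukocytes gave different pictures. Irf8, a factor of macrophage and dendritic cell development, was well above detection in PBS. The gene (ENSMUSG00000041515, chr8:121463096-121485659) was at 27.9, 25.2, 29 and 25 CPM in PBS and at 74.4, 69.7, 104 and 51.3 CPM in TNF. The TNF libraries were all above PBS, with replicate 3 the highest and replicate 4 the lowest. The log2 fold change was 1.49 ± 0.19 (edgeR adjusted p = 0.000118), and with library size alone it was 1.18 (edgeR adjusted p = 0.0382).

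Irf5, which acts downstream of Toll-like receptors, was at 4.29, 4.61, 4.85 and 4.64 CPM in PBS and at 10.3, 13, 11.6 and 8.76 CPM in TNF (ENSMUSG00000029771, chr6:29526276-29541870). The groups did not overlap, and the log2 fold change was 1.25 ± 0.15 (edgeR adjusted p = 6.19e-05). With library size alone it was 0.90 (edgeR adjusted p = 0.0687) and, without TNF replicate 4 as well, 1.17 (edgeR adjusted p = 0.000143). Irf5 shares 416 exon bases, 5.8% of its merged exons, with Tnpo3 on the opposite strand, which was at 34.6 CPM in PBS and 46.9 CPM in TNF and was called higher by 0.44 on the log2 scale (edgeR adjusted p = 0.00734), so with the strand setting unknown some reads of Irf5 may not be separated. Irf4, the factor of plasma cells and activated lymphocytes (ENSMUSG00000021356, chr13:30933209-30950959), had 0 counts in all 8 libraries, where 3 counts would be 0.0921 to 0.126 CPM, and it could not be tested.

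Markers of other cell types stood beside these values as follows. The 7 leukocyte markers summed to 0.898 to 1.78 plain CPM in PBS and 1.34 to 2.69 in TNF, with 2 of them tested and Cd52 called higher by 1.69 on the log2 scale (edgeR adjusted p = 0.0118). The 9 myeloid and dendritic cell markers summed to 2.14 to 4.64 plain CPM in PBS and 1.5 to 4.33 in TNF, and the 1 tested, Csf1r, was at 0.51 on the log2 scale (edgeR adjusted p = 0.0721). Csf1r had 31 to 125 counts in a library, Itgam 3 to 14, Cd68 at most 12 and Cx3cr1 at most 5, and the other 5 of the list, Tyrobp, Fcer1g, Itgax, Adgre1 and Flt3, were at 0 in all libraries. Irf8 had 597 to 2969 counts. Spi1, which encodes the myeloid partner of IRF8, had at most 2 counts in a library.

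Of 7 B cell and plasma cell markers, 2 were tested and both were called higher, Cd79b by 3.31 and Ms4a1 by 2.94 on the log2 scale (edgeR adjusted p = 0.00105 and 0.000207). The list summed to 0.156 to 0.269 plain CPM in PBS and 0.962 to 1.6 in TNF, with no overlap, and Cd79a and Mzb1 were at 0. Cd79b had 10 to 17 and Ms4a1 13 to 30 counts in a TNF library. Of 7 T cell and innate lymphoid cell markers 6 were at 0 in all libraries, and none was tested. Of 7 stroma and endothelial cell markers 1 was tested, Vim, and it was called higher by 2.05 (edgeR adjusted p = 0.00092), with the list at 0.234 to 0.614 plain CPM in PBS and 0.577 to 1.88 in TNF. The part of RNA from these other cell types in the levels and the rise of Irf5 and Irf8 was not tested.

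Epithelial neighbours were also followed. Of 8 enterocyte markers 2 were called, both lower, of 7 goblet cell markers 1 was called higher and 2 lower, and of 8 stem and cycling cell markers 5 were called, all lower. Of all genes tested, 23.3% were called higher and 19.6% lower. Under library size alone 3 enterocyte, 2 goblet cell and 4 stem and cycling cell markers were called lower and none of the goblet cell markers was called higher. The shares over all genes were then 18.1% lower and 5.66% higher. The enterocyte list summed to 564 to 674 plain CPM in PBS and 146 to 431 in TNF, where 146 was TNF replicate 4 and the others were at 414 to 431. Its genes with the highest plain CPM were Anpep and Vil1, at 296 and 274 in PBS and 93.3 and 237 in TNF on average. Anpep was called lower (edgeR adjusted p = 0.000261) and Vil1 was not called (edgeR adjusted p = 0.439). Of the 8 Paneth cell markers 1 was called, Pla2g2a, which rose by 1.01 on the log2 scale (edgeR adjusted p = 0.000324). With TNF replicate 4 left out, 2 Paneth cell markers were called higher, Csf1r was called, and of the enterocyte markers 1 was called higher and 4 lower, and 3 goblet cell markers were called lower. That fit called 3657 genes higher and 3266 lower in all, against 3121 and 2625 with the library kept. In such bulk libraries, fewer cells of a type and less RNA per cell cannot be told apart.

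Levels of different genes were compared per kilobase of merged exon length, in plain CPM. In PBS the order was Irf3 at 8.57 ± 1.61, Irf1 at 7.18 ± 1.57, Irf8 at 3.25 ± 0.396, Irf7 at 2.67 ± 0.383, Irf2 at 1.97 ± 0.255, Irf9 at 1.92 ± 0.386 and Irf5 at 0.756 ± 0.0869 CPM per kilobase, with Irf4 at 0. The ranges of Irf3 and Irf1 overlapped over libraries, as did those of each neighbouring pair from Irf8 down to Irf9, whereas Irf1 stood above Irf8 and Irf9 above Irf5 without overlap. Within a library, Irf3 was above Irf1, Irf8 above Irf7 and Irf7 above Irf2 in 4 of 4 PBS libraries, and in normalized CPM per kilobase the ranges of these pairs did not overlap. Irf2 was above Irf9 in 3 of the 4. In TNF, Irf1 led at 28.3 ± 11.3 CPM per kilobase, followed by Irf8 at 7.33 ± 3.76, Irf3 at 7.05 ± 1.75, Irf7 at 5.16 ± 2.5, Irf9 at 3.05 ± 1.34, Irf2 at 2.83 ± 1.18 and Irf5 at 1.41 ± 0.585. From Irf8 down to Irf5 each of these neighbours overlapped. Irf8 was above Irf3 in 2 of the 4 TNF libraries, and in normalized CPM per kilobase the pair stood the other way round, with Irf3 at 8.18 and Irf8 at 7.7. Irf3 was above Irf7 and Irf9 above Irf2 in 3 of the 4. The order also depends on the length used, since per kilobase of the canonical transcript Irf1 led in PBS at 15.7, ahead of Irf3 at 14.4 and Irf2 at 8.77.

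As a share of the summed family level per kilobase, which again needs no scaling between libraries, Irf1 made up 27.2%, 25.3%, 27.3% and 28.7% in PBS and 48.9%, 53.7%, 51.7% and 50.6% in TNF. The Irf1 share of TNF replicate 4 lay among those of the other TNF libraries, but its Irf3 share was 19.6% against 9.8% to 13.7% and its Irf8 share 10.1% against 11.6% to 15.8%. The Irf3 share went from 32.5% ± 1.53 to 14% ± 4.08 (SD, n = 4 each), the largest loss of the family. Irf8 held 12.4% ± 1.17 in PBS and 12.7% ± 2.42 in TNF, and its ranges overlapped. With canonical transcript lengths the Irf1 share was 28% ± 1.58 in PBS and 51.8% ± 1.8 in TNF.

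**Figure D4:**
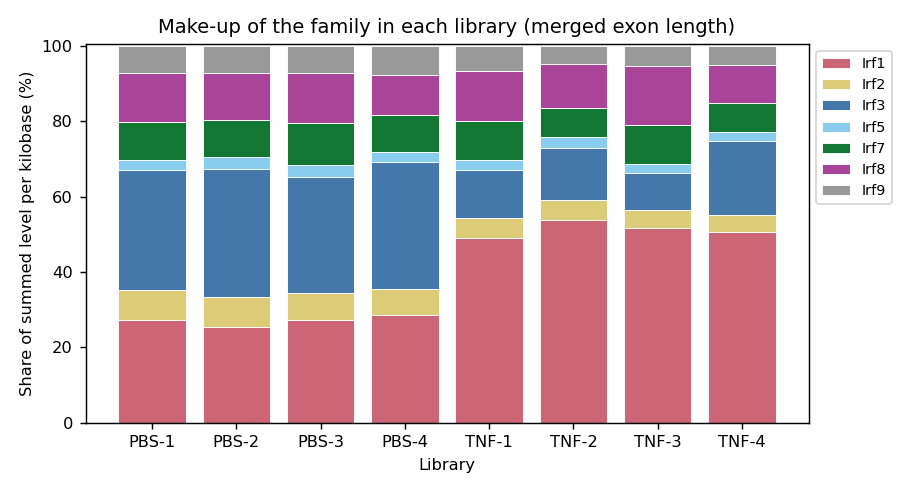
Stacked bars give the percentage of the summed family level per kilobase of merged exon length that each member held in each of the 8 libraries. The Irf1 segment covers 25.3% to 28.7% of the PBS bars and 48.9% to 53.7% of the TNF bars, and the Irf3 segment is smaller in every TNF bar than in any PBS bar.

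The genes that activate IRFs mostly rose with them. Of 22 sensors, adaptors and kinases acting on IRF3, IRF5 or IRF7, 18 were tested, 15 were called higher and 1 lower, with a median log2 fold change of 1.07. Over all genes tested, 23.3% were called higher and 19.6% lower. The smallest p-values belonged to Sting1, the adaptor for cytosolic DNA, which rose by 3.46 (edgeR adjusted p = 9.34e-08), to the Toll-like receptor adaptor Myd88, which rose by 2.18, and to the double-stranded RNA receptor Tlr3, which rose by 2.49. The gene with the largest p was Slc15a4, a lysosomal transporter needed for IRF5 activation, at −0.17 (edgeR adjusted p = 0.385). Chosen after its values were seen, the 1 gene called lower was Mavs, the mitochondrial adaptor for RNA sensors, at −0.58 (edgeR adjusted p = 0.0036). Under library size alone 6 of these genes were called higher and 1 lower, beside 5.66% and 18.1% over all genes. Tlr7 and Tasl were at 0 counts in all libraries.

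The interferon genes examined had no counts. All 8 listed, Ifnb1, Ifna2, Ifna4, Ifne, Ifnk, Ifng, Ifnl2 and Ifnl3, were at 0 in all 8 libraries at the depth given above. Their receptors and signalling partners were present, and of 12 receptor, JAK and STAT genes 10 were called higher and 1 lower, with a median log2 fold change of 1.41. The shares over all genes tested were 23.3% higher and 19.6% lower. Ifngr2, a chain of the interferon-γ receptor, rose by 1.60, and Stat3 rose by 2.02 (edgeR adjusted p = 3.86e-06 and 9.19e-06). Il10rb, the chain shared by the interferon-λ receptor, had the largest p, at 0.057 (edgeR adjusted p = 0.692). The 1 gene called lower, again chosen after its values were seen, was the kinase gene Tyk2 at −0.42 (edgeR adjusted p = 0.0102). Under library size alone 6 were called higher, beside 5.66% of all genes, and Tyk2, at −0.84, was not called (edgeR adjusted p = 0.0538).

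Cofactors and negative regulators of IRFs were mixed, with 6 called higher and 5 lower of 15 tested and a median of 0.29, beside 23.3% higher and 19.6% lower over all genes tested. The smallest p-values were those of feedback genes, with Socs3, an inhibitor of JAK kinases, up by 5.60 (edgeR adjusted p = 3.18e-07), the phosphatase gene Ptpn2 up by 1.72 and Usp18, which removes ISG15 and restrains type I interferon signalling, up by 2.92. Rbck1 had the largest p, at 0.03 (edgeR adjusted p = 0.848). Among the genes called lower, and chosen after their values were seen, were the IRF2-binding corepressors Irf2bp1 at −0.86 and Irf2bp2 at −0.68 (edgeR adjusted p = 0.000621 and 0.00211). Irf2bpl, called higher at 0.29, sat at an edgeR adjusted p of 0.0498 and lost its call in 14 of 18 alternative fits. Under library size alone 4 of the list were called higher and 3 lower, beside 5.66% and 18.1% over all genes.

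The textbook targets rose as a rule, without a test of which factor acted on them. Of 27 targets of IRF1, 25 were tested and 23 were called higher, beside 23.3% of all genes tested. With TMM factors no other had a negative fold change, and the median log2 fold change was 2.25. The RNA of the chemokine gene Cxcl11 went from 0.193 ± 0.171 to 73.7 ± 23.8 CPM, a log2 fold change of 8.41 (edgeR adjusted p = 3.18e-07). The peptide transporter genes Tap2 and Tap1 rose by 2.67 and 2.52. Il15 had the largest p, at 0.40 (edgeR adjusted p = 0.559). Under library size alone 17 were called higher, beside 5.66% of all genes, and Il15 was at −0.082 (edgeR adjusted p = 0.925).

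Of 26 targets of IRF3, IRF7 or the IRF9 complex, 22 were tested and 20 were called higher, beside 23.3% of all genes tested. With TMM factors and all libraries no other had a negative fold change, and the median was 2.21. Parp14, an ADP-ribosyltransferase, rose by 4.07, Rtp4 by 3.49 and the antiviral gene Samd9l by 2.48 (edgeR adjusted p = 1.54e-07, 2.49e-07 and 3.18e-07). Ifit2 had the largest p, at 0.19 (edgeR adjusted p = 0.66). For library size alone the count was 12, beside 5.66% of all genes, and Ifit2 and Bst2 were negative, at −0.20 and −0.26. Ifit2 also turned negative without PBS replicate 1 or TNF replicate 1, and Bst2 without PBS replicate 4. With TNF replicate 4 left out, the numbers of genes called higher and lower in the 5 tested lists around the family were the same as with it, though the median of the cofactors was 0.018. Many of these targets are also known to answer NF-κB, and the lists do not separate the inputs.

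**Figure D5:**
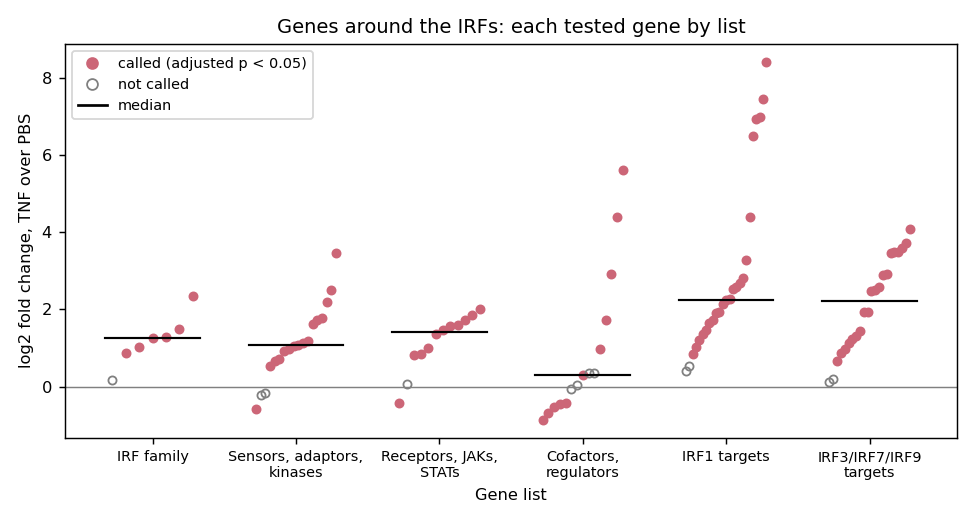
Log2 fold change of every tested gene, TNF over PBS, for the family and the lists of genes around it, with filled points for genes called at an adjusted p under 0.05, open points for the others and a line at the median. The medians of both target lists, 2.25 and 2.21, lie above that of the family at 1.25, and the cofactors lie on both sides of 0.

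The patterns most like each member over the 8 libraries were described by Pearson's r of log2 normalized CPM among 8492 genes with a mean of at least 5 CPM. Irf1 was most like Rel, the NF-κB subunit c-Rel, and its overlapping neighbour Gm17334, both at 0.999. Irf2 was most like Tor1aip2 (0.996) and Clint1 (0.994), Irf5 like Nipal2 (0.999) and Rab6a (0.997), and Irf8 like Pmepa1 and Ddx24 (both 0.995). Irf7 was most like Sdad1 and Exosc10 (both 0.991), and Irf9 like Pgap6 (0.992) and Mdm2 (0.991). Between 1189 and 1441 genes reached an r above 0.9 with each of these members, and the 8 points of each correlation share the split between PBS and TNF. Irf3 was the exception, with 13 such genes and Tial1 (0.958) in the lead.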

How the data were processed

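RNA of sorted Paneth cells was sequenced in 4 PBS and 4 TNF samples with a stranded mRNA kit, and the authors deposited raw counts of reads per Ensembl gene. Per the labels, the submitters' processing notes name FastQC 0.12, STAR 2.7.10a, DESeq2 and the build mm39 (GRCm39), while the counting program and its strand setting were not given in the sources used here. The labels name no batch or pooling of mice, and p-values measure the spread between these libraries.

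Gene IDs were matched to GENCODE mouse release 39 (54749 of 55414). Genes were filtered with filterByExpr, scaled by TMM and tested with edgeR 4.0.16 (R 4.3.3) by the quasi-likelihood F test, and called at an adjusted p under 0.05 over all genes tested. The fit was run on simulated counts with known changes, which held no library with a composition like that of TNF replicate 4. Ratios used counts plus 0.5 and a two-sided exact permutation test. No 2 libraries of a group agreed within sampling noise, with a lowest chi-square per degree of freedom of 8.77. Alternatives used DESeq2 1.42.0, limma 3.58.1, other scalings, filters, gene lengths and left-out libraries. Promoters were read from GRCm39. A floor of 3 counts covers counting error only.

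The members and lists were chosen with earlier results of these data known. Named were all members, in each pathway list the 3 tested genes with the smallest p and the 1 with the largest, the genes of the 6 ratios, and for each tested member the 2 genes most like it with a mean of at least 5 CPM. Other genes named were chosen after their values were seen. Some genes that this rule covers, and the ratios with them, are not reported here.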

Additional observations from a re-analysis of the deposited data

How the results depend on the processing

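The 6 calls among the members were made under all other settings tried but 2, among them RLE scaling, TMM factors without Defa genes, other filters, DESeq2, limma-voom and leaving out any 1 library. The exceptions were scalings without a TMM factor that kept TNF replicate 4. With library size alone 2 members and 3182 genes in all were called, and the log2 fold changes were 0.52 for Irf2, 0.90 for Irf5, 0.95 for Irf7 and 0.67 for Irf9, none past the threshold, and −0.28 for Irf3. With TNF replicate 4 left out of that scaling, an alternative chosen after seeing the data, all 6 were called, 6125 genes in all were called and Irf3 was at −0.12. With library size less the Defa counts, also chosen after seeing the data, Irf2 (0.58, edgeR adjusted p = 0.115) and Irf9 (0.73, edgeR adjusted p = 0.0552) lost their calls, 4439 genes in all were called and Irf3 was at −0.19. The cause was not tested.

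The labels do not say whether replicate numbers pair the samples. After each gene's group mean was subtracted, same-numbered PBS and TNF libraries correlated at 0.0229, 0.0663, −0.144 and −0.126. With 4 libraries in a group, such values cannot decide whether the samples were paired. With the replicate number as a block in edgeR the calls among members were unchanged and 5087 genes were called in all. For the ratios a blocked exact sign-flip test over 4 pairs left the differences at 1.50 for Irf1 to Irf2, 1.08 for Irf7 to Irf3, −0.74 for Irf9 to Stat2 and 1.34 for Irf1 to Irf9, but cannot pass the threshold (exact adjusted p = 0.15). Leaving out 1 library moved them between 1.43 and 1.57, 0.86 and 1.33, −0.80 and −0.66, and 1.26 and 1.45, in the same order, and with 3 PBS libraries the exact adjusted p was 0.0571 or 0.0857.

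Of the 8 members, 3 kept their rank by level in PBS and 4 in TNF with canonical transcript lengths, 6 kept it in TNF with normalized CPM per kilobase, and 6 to 8 kept it in either group without 1 library. Irf4 and the 8 interferon genes had 0 counts, and levels under the floor of 3 counts could not be seen at this depth.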
